A study of Mus musculus with 27 samples.

Results

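The mitochondrial respiratory chain genes of mouse lung comprised 86 of the 20239 genes that the array measured under a single symbol. They were taken by symbol: every gene whose name starts with Nduf, Uqcr, Sdha, Sdhb, Sdhc, Sdhd or Atp5, or with Cox followed by 4, 5, 6, 7 or 8, pseudogenes left out. RNA of the right lung was hybridised to 27 Mouse Gene 1.0 ST arrays, 1 for each of 3 females, 11 weeks old, of 9 inbred strains, with normal lung and no treatment named in the labels. The strains were A/J, C57BL/6J and DBA/2J, labelled increased in both severity and frequency of spontaneous pulmonary adenoma; C3H/HeJ, C57L/J, 129S1/SvlmJ and BALB/cJ, labelled increased in severity and decreased in frequency; and KK/HlJ and MRL/MpJ, labelled decreased in both. The label belongs to the strain and not to the single mouse, and each mouse was sampled once.

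The respiratory chain passes electrons from NADH through complex I and from succinate through complex II to ubiquinone, on to cytochrome c through complex III and to oxygen through complex IV. Complexes I, III and IV pump protons across the inner mitochondrial membrane, and complex V, the ATP synthase, uses that gradient to make ATP. Several complex IV subunits exist in a widely expressed form and in a form restricted to muscle, brown fat or testis, and Cox4i2 is the form known for its role in the response of the lung to low oxygen.

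Of the 86 genes, 41 belonged to complex I, as 28 accessory subunits, 6 core subunits and 7 assembly factors. Complex II had 8, of which 4 were subunits and 4 assembly factors. Complex III had 6, and complex V had 12, namely 5 of the catalytic F1 head, 4 of the membrane part and 3 of the peripheral stalk. Complex IV had 19: 10 widely expressed subunits, 8 forms restricted to a tissue or condition, and Cox7a2l. Mean log2 signal was highest for Atp5a1, the alpha subunit of the catalytic head, at 11.19, and lowest for Cox7b2, a testis form of a complex IV subunit, at 3.01. Genes of the Y chromosome, absent from these females, averaged between 2.55 and 5.09, the upper end being Sry alone and the rest reaching 3.42. By that measure 84 of the 86 genes lay at or above background, and Cox7b2 and the complex I assembly factor Ndufaf6 lay below its upper end. Signal depends on the probe set, so levels are compared between arrays and not between genes. The 13 protein genes of the mitochondrial genome were not analysed here.

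The labelled tissue was borne out by its markers on every array: surfactant gene Sftpc read 12.98 to 13.35, Sftpb 11.74 to 12.47, the club cell gene Scgb1a1 12.51 to 13.02 and the alveolar type I gene Ager 11.49 to 12.05. C3H/HeJ replicate 2 stood apart. Its summed signal over 13 skeletal muscle markers was 13.64 on the log2 scale, against 8.90 to 9.50 on the other 26 arrays. The brown adipocyte marker Ucp1 read 9.85 there, and the contractile and metabolic muscle genes Acta1 and Ckm read 11.56 and 10.81. Results that rest on this array are therefore given with and without it.

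All 5 complexes read high on C3H/HeJ replicate 2. The difference between replicate 2 and the mean of replicates 1 and 3 had a median of 0.43 on the log2 scale over the 86 genes, with a range of -0.24 to 3.20, beside a median of 0.01 over all named genes. It was above 0 for 79 of 86 (91.9%), beside 52.5% of all named genes. For 61 of 86 (70.9%) replicate 2 was the highest of the 27 arrays, beside 8.99% of all named genes. The difference reached 0.5 for 39 of 86 (45.3%), beside 4.29% of all. These are values of 1 array and were not tested.

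By complex, the median difference was 0.43 for complex I, 0.38 for complex II, 0.78 for complex III, 0.31 for complex IV and 0.55 for complex V. Medians were larger for structural subunits than for assembly factors. In complex I the medians were 0.55 for core subunits, 0.45 for accessory subunits and 0.21 for assembly factors, and in complex II they were 0.63 for the subunits and 0.12 for the assembly factors. Ndufb9, an accessory subunit of complex I, read 8.69 on replicate 2, against 7.56 and 7.84 on replicates 1 and 3. Uqcrc1, a core protein of complex III, read 10.23, against 9.32 and 9.29. Sdha, the flavoprotein of succinate dehydrogenase, read 10.32 on replicate 2, against 9.60 and 9.64 on its strain mates. In all 3 genes replicate 2 lay above each of the other 26 arrays.

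**Figure D1:**
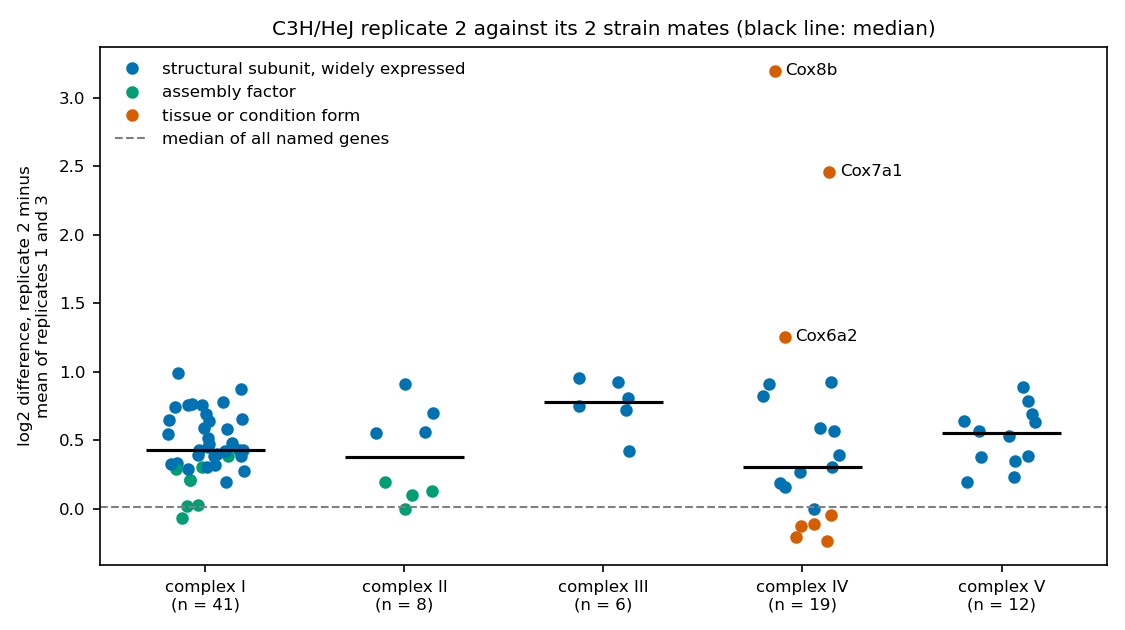
Each point is 1 gene, placed at the log2 difference between C3H/HeJ replicate 2 and the mean of C3H/HeJ replicates 1 and 3, grouped by complex; black lines are medians and the dashed line is the median of all named genes (0.01). Cox8b, Cox7a1 and Cox6a2 lie at 3.20, 2.46 and 1.26, all other members are below 1, and the other 5 tissue or condition forms lie below 0.

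The widest gaps belonged to the muscle and brown fat forms of complex IV subunits. Cox8b, the form of subunit VIII found in heart, skeletal muscle and brown fat, read 9.67 on C3H/HeJ replicate 2, against 6.42 and 6.51 on replicates 1 and 3, a 9.18-fold difference. Cox7a1, the form of subunit VIIa in the same tissues, read 9.08 on replicate 2, against 6.62 on each of its strain mates, a 5.50-fold difference. Cox6a2, the heart and skeletal muscle form of subunit VIa, read 8.72 on replicate 2, against 7.43 and 7.50, a 2.39-fold difference. On the other 26 arrays these genes did not exceed 7.38, 7.44 and 7.76 in that order, so replicate 2 overlapped no other array.

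The widely expressed counterparts moved far less on the same array. Cox8a read 9.11 on C3H/HeJ replicate 2, against 8.54 and 8.89 on replicates 1 and 3. Cox7a2 read 8.09 there, against 7.97 and 7.89, and Cox6a1 read 9.62, against 9.18 and 9.52. Cox7a2 on replicate 2 lay inside the range of the other arrays, which ended at 8.21. Cox8a and Cox6a1 lay above all other arrays, which ended at 8.95 and 9.54. Of the 10 widely expressed complex IV subunits, 8 were highest on replicate 2. Over the 10 widely expressed complex IV subunits the median difference was 0.48, and over the 8 restricted forms it was -0.08, with 3 of 8 above 0. The 5 restricted forms that were not above 0 are forms of testis or of low oxygen: Cox7b2 read 2.90 on replicate 2, against 3.01 and 3.26, Ndufa4l2 6.47, against 6.54 and 6.81, and Cox8c 5.09, against 5.07 and 5.36.

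Other lists gave the setting on that array. All 13 skeletal muscle markers were higher on C3H/HeJ replicate 2 than the mean of replicates 1 and 3, with a median difference of 3.64 and a range of 2.28 to 6.32. All 5 brown adipocyte markers (Cox8b among them) were higher, with a median of 3.06, as were all 7 adipocyte markers measured, with a median of 2.00. All 14 tricarboxylic acid cycle genes were higher, with a median of 0.76, and 11 of 12 mitochondrial carriers and transhydrogenase genes, with a median of 0.63. Cardiac markers were above 0 for 4 of 12, with a median of -0.03, and lung markers for 1 of 6, with a median of -0.11. The share of the respiratory chain difference that goes with the muscle and fat markers was not tested. In whole tissue, fewer cells of a type and less RNA per cell cannot be told apart.

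The promoters of the muscle and brown fat forms and of their counterparts are printed because these pairs differed most in how they behaved on that array. The sequences are those of RefSeq on GRCm38.p6, from 250 bases before to 50 bases after each gene's start, 5′ to 3′ on the gene's strand: Cox8b at chr7:140900397-140900696 (minus strand), Cox7a1 at chr7:30183921-30184220 (plus strand), Cox8a at chr19:7217567-7217866 (minus strand) and Cox7a2 at chr9:79759804-79760103 (minus strand). Capitals mark matches to the motifs described after the sequences.
Cox8b: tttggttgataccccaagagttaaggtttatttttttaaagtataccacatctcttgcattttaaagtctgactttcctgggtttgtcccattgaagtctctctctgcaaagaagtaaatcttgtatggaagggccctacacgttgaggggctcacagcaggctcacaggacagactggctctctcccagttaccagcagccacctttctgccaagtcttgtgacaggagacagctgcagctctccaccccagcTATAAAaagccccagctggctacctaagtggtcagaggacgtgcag
Cox7a1: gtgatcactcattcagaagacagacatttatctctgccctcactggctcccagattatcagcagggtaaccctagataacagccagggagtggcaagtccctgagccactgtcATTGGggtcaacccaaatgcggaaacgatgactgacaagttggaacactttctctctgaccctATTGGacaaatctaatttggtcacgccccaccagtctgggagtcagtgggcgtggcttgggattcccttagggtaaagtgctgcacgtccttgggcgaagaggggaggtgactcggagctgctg
Cox8a: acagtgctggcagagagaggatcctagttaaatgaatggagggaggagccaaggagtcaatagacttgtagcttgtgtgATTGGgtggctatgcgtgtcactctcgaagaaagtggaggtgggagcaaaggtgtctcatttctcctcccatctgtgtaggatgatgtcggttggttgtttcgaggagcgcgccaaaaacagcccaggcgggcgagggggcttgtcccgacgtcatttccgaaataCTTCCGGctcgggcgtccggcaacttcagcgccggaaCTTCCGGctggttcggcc
Cox7a2: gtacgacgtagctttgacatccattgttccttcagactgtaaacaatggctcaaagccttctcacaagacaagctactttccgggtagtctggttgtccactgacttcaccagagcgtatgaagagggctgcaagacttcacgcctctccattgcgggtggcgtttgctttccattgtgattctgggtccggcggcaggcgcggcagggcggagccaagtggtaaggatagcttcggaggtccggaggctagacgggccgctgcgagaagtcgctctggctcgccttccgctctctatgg

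The 6 short motifs were searched on both strands, and no matches overlapped in these 4 windows. With bases counted from the first one printed, Cox8b held TATAAA, the letters of a TATA box, at bases 255 to 260. These bases lie after the annotated gene start, so the match is one of letters and not of position. Cox7a1 held the reverse complement of CCAAT at bases 114 to 118 and 177 to 181. Cox8a held the reverse complement of CCGGAAG, a core site of the ETS family to which GABPA belongs, at bases 246 to 252 and 283 to 289, and that of CCAAT at bases 80 to 84. Cox7a2 held none of the 6, which says only that these letters are not in this window.

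RefSeq promoters were matched for 70 of the 86 genes, 75 promoters in all. CCGGAAG stood in 17 of 75 (22.7%), beside 8.86% of all 32851 mouse promoters of the same length. GCATGCGC, a site of the nuclear respiratory factor NRF1, stood in 9 of 75 (12%), beside 2.71%. AAGGTCA, a site of the oestrogen-related receptors, stood in 6 of 75 (8%), beside 4.72%. CTANNNNTAG, the outer letters of the MEF2 site with any base allowed between them, stood in 2 (2.67%), beside 3.69%. TATAAA stood in 8 (10.7%), beside 13.6%, and CCAAT in 30 (40%), beside 37.4%. These shares describe letters in a window and were not tested.

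**Figure D2:**
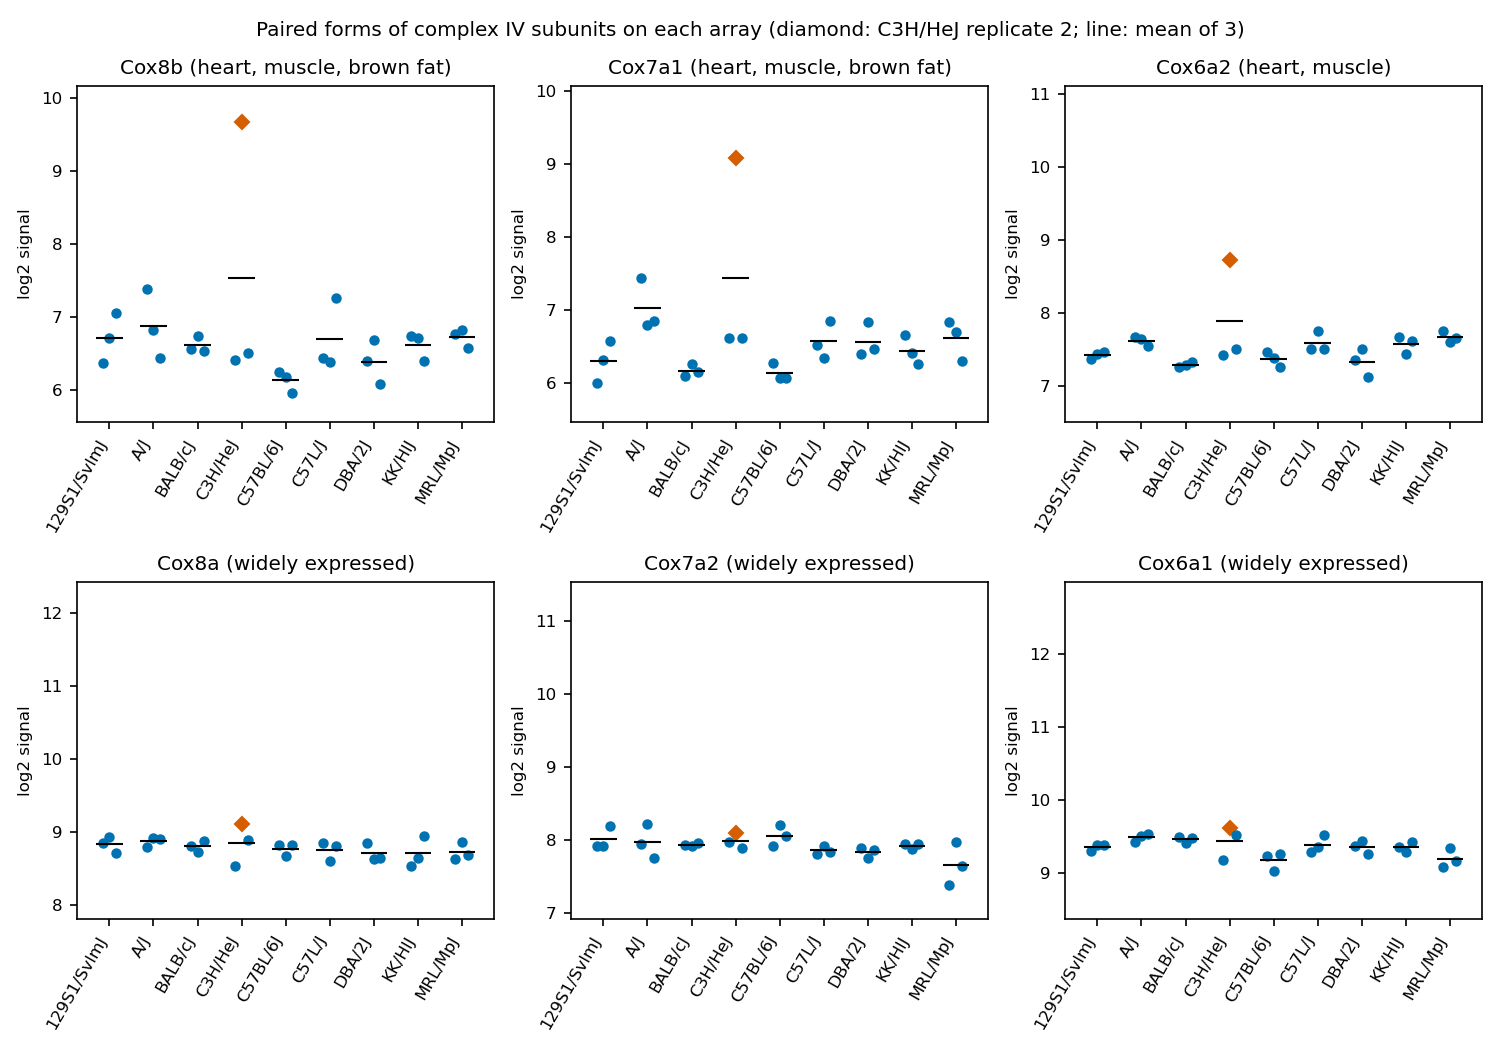
Each point is the log2 signal of 1 array, by strain, for 3 complex IV subunit forms of heart, muscle or brown fat (top row) and their widely expressed counterparts (bottom row); lines are means of 3 arrays, the diamond is C3H/HeJ replicate 2, and axes do not start at 0 but span the same number of log2 units within a pair. In the top row the diamond lies at 9.67, 9.08 and 8.72, clear of all other arrays. In the bottom row it lies at 9.11, 8.09 and 9.62, with other arrays reaching 8.95, 8.21 and 9.54.

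Smaller excursions of Cox8b occurred on other arrays, not always with the other forms. A/J replicate 1 read 7.38 for Cox8b and 7.44 for Cox7a1, against 6.43 to 6.82 and 6.79 to 6.85 on the other A/J arrays, with Ucp1 at 7.38. C57L/J replicate 3 read 7.26 for Cox8b and 6.85 for Cox7a1, with Ucp1 at 7.39, while Cox6a2, at 7.51, ranked 12 of 27. In 129S1/SvlmJ replicate 3, Cox8b read 7.06 and Ucp1 6.34, while Cox7a1, at 6.57, ranked 12 of 27 and Cox6a2, at 7.46, ranked 16. These 3 arrays and C3H/HeJ replicate 2 were the 4 highest for Cox8b, and all 4 ranked within the highest 5 for Ucp1. The remaining array of those 5, C57L/J replicate 1, read 6.66 for Ucp1, rank 4, and 6.44 for Cox8b, rank 17. It ranked 13 for Cox7a1. A/J replicate 3 matched C57L/J replicate 3 for Cox7a1, at 6.85, while it ranked 13 for Ucp1. These arrays were picked out after their values were seen.

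Across the 9 strains, 13 of the 86 genes (15.1%) differed by limma's moderated F test at an adjusted p under 0.05, beside 28.9% of all named genes. Without C3H/HeJ replicate 2 the test called 18 (20.9%), beside 29.6%. The 2 counts shared 11 genes. Sdhaf1 (adjusted p = 0.0374 with all arrays, 0.0577 without) and Ndufb3 (0.0432 and 0.0656) were lost, while Ndufa9, Cox7a1, Sdha, Cox6a2, Ndufs1, Ndufb6 and Atp5d were gained. In Ndufa9, an accessory subunit next to the ubiquinone site of complex I, the adjusted p of the F test was 0.101 with all arrays and 0.000667 without replicate 2.

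The range of the 9 strain means had a median of 0.30 on the log2 scale over the 86 genes, from 0.14 to 1.40, beside a median of 0.34 over all named genes. It stayed under 0.5 for 74 of 86, beside 76.5% of all named genes, and reached 1 for 3 genes, Ndufs5, Cox8b and Cox7a1. Without replicate 2 only Ndufs5 reached 1, and 77 (89.5%) stayed under 0.5. C3H/HeJ had the highest strain mean for 46 of 86 genes with all arrays and for 5 without that array.

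By complex, the F test called 6 of 41 in complex I (8 without C3H/HeJ replicate 2), 1 of 8 in complex II (1), 0 of 6 in complex III (0), 4 of 19 in complex IV (6) and 2 of 12 in complex V (3). Among classes, it called 3 of 8 restricted complex IV forms (5), 0 of 10 widely expressed ones (0) and 3 of 11 assembly factors (2). The share of all named genes called was 28.9% with all arrays and 29.6% without that array. In complex III, which hands electrons from ubiquinol to cytochrome c, the adjusted p of the F test ran from 0.253 for Uqcr10 to 0.975 for Uqcrc1.

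In complex I, Ndufs5, an accessory subunit on the intermembrane space side, had the smallest F test p of all members (adjusted p = 1.76e-06; 2.08e-06 without C3H/HeJ replicate 2). Its log2 signal was 6.40, 6.82 and 6.14 in 129S1/SvlmJ and 6.23, 6.94 and 6.96 in C57L/J. It was 7.93, 7.86 and 7.76 in A/J, 7.64, 7.68 and 7.84 in BALB/cJ, 7.72, 8.07 and 7.64 in C3H/HeJ and 7.71, 7.75 and 7.70 in C57BL/6J. It was 7.68, 7.66 and 7.90 in DBA/2J, 7.56, 7.61 and 7.93 in KK/HlJ and 7.95, 7.64 and 7.45 in MRL/MpJ. All arrays of 129S1/SvlmJ and C57L/J (6.14 to 6.96) lay below all arrays of the other 7 strains (7.45 to 8.07).

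Against the mean of the other 8 strains, Ndufs5 was 6.45 ± 0.34 in 129S1/SvlmJ and 7.62 in the others, and it fell by 1.16 (SE 0.13, limma adjusted p = 2e-06). In C57L/J it was 6.71 ± 0.41 against 7.59 in the others, and it fell by 0.87 (SE 0.13, limma adjusted p = 8.33e-05). Both calls held whichever of the 27 arrays was left out. The 14 pairs that set 1 of these 2 strains against 1 of the other 7 were all called with no minimum difference. Their differences were 0.97 to 1.40 in size, with limma adjusted p from 9e-06 to 0.00071. The 2 strains were set apart at the widest gap between the strain means of this gene. The pair count is therefore not independent support for the split. The probe sequences of this and other members were not analysed here.

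**Figure D3:**
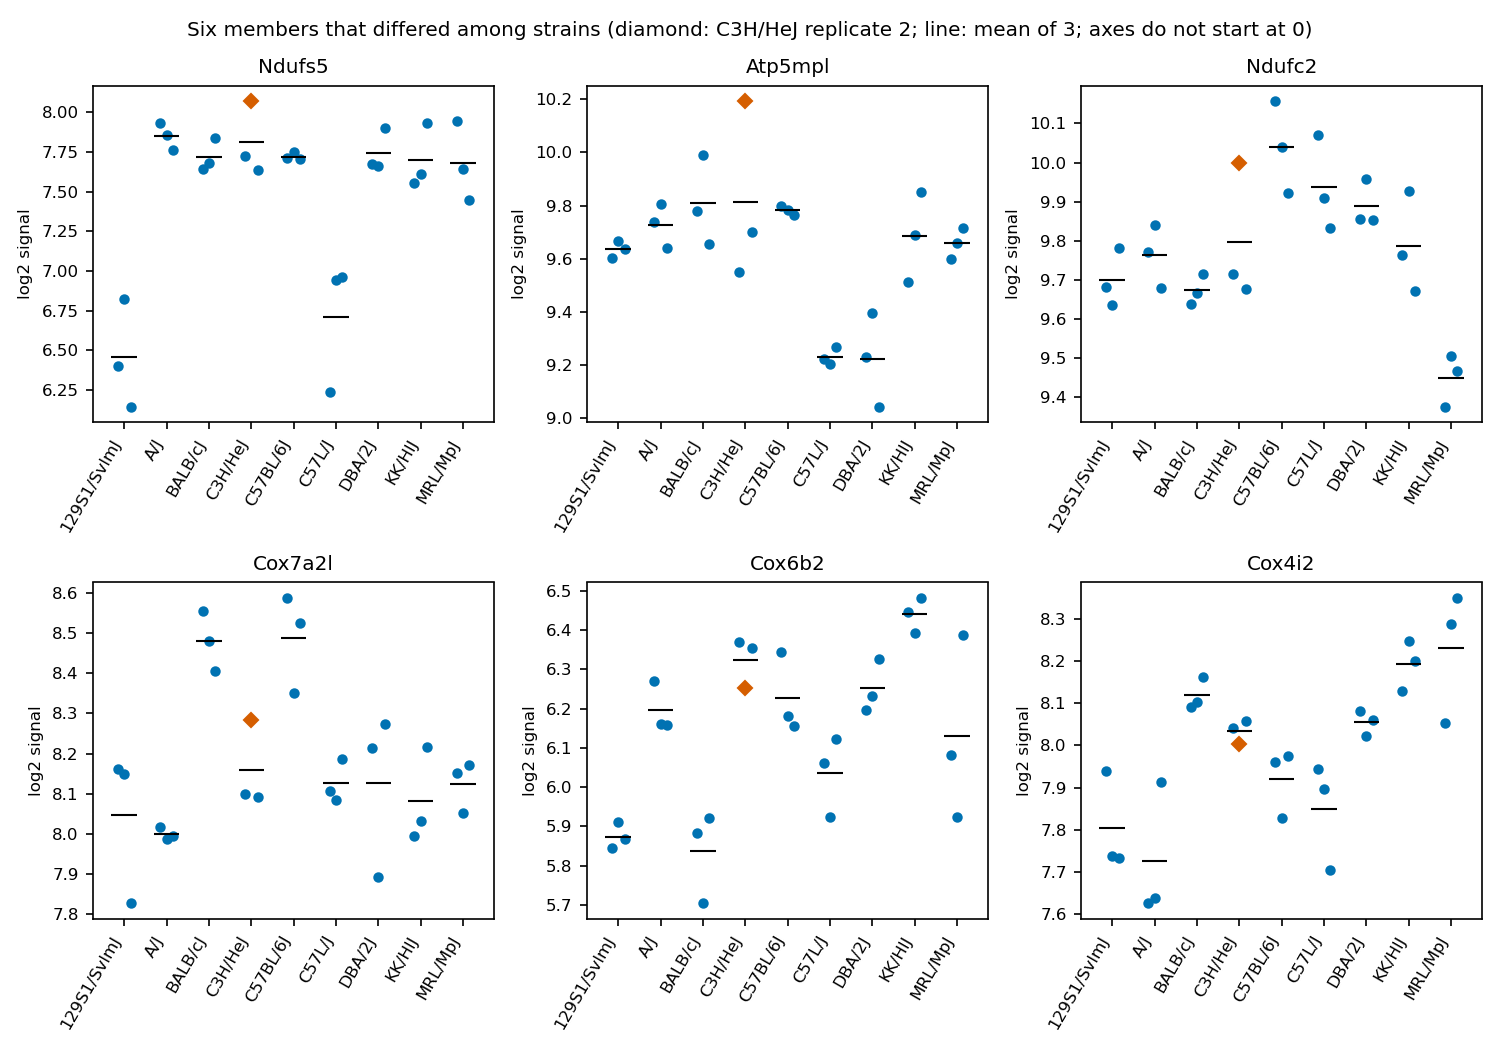
Each point is the log2 signal of 1 array, by strain, for 6 members that differed among strains; lines are means of 3 arrays, the diamond is C3H/HeJ replicate 2, and axes do not start at 0. Ndufs5 is low in 129S1/SvlmJ and C57L/J (6.14 to 6.96), Atp5mpl is low in C57L/J and DBA/2J (9.04 to 9.39), Ndufc2 is low in MRL/MpJ (9.38 to 9.51) and Cox7a2l is high in BALB/cJ and C57BL/6J (8.35 to 8.59).

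Ndufc2, an accessory subunit of the membrane arm, separated the lungs of 1 strain. In MRL/MpJ it read 9.38, 9.51 and 9.47, below each of the other 24 arrays, which ran from 9.64 to 10.16. It fell by 0.37 in MRL/MpJ (9.45 ± 0.07 against 9.82 in the other 8; SE 0.07, limma adjusted p = 0.000658), and the call held whichever array was left out. In C57BL/6J the arrays read 10.16, 10.04 and 9.92, and the mean was 0.29 higher than in the other 8 strains (10.04 ± 0.12 against 9.75; SE 0.07, limma adjusted p = 0.00653). The C57BL/6J arrays overlapped those of C57L/J, and without C57BL/6J replicate 1 the adjusted p was 0.11. The F test gave Ndufc2 an adjusted p of 0.000844.

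More members were high in C57BL/6J. Ndufa3, another accessory subunit of the membrane arm, read 9.12, 8.92 and 8.93 there, against 8.47 to 8.92 on the other 24 arrays, so the groups overlapped only at C3H/HeJ replicate 2. It was 8.99 ± 0.11 in C57BL/6J and 8.66 in the other 8, a difference of 0.33 (SE 0.07, limma adjusted p = 0.00243; 0.0605 without C57BL/6J replicate 1). Ndufaf7, an assembly factor of complex I, read 8.08, 8.28 and 8.14 in C57BL/6J. C57L/J replicate 1, at 8.13, was the only other array in that range. Ndufaf7 was 8.17 ± 0.10 in C57BL/6J and 7.86 in the others, a difference of 0.30 (SE 0.06, limma adjusted p = 0.00332), and without C57BL/6J replicate 2 the adjusted p was 0.0782 for the difference and 0.0705 for the F test.

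The assembly factor Ndufaf2 is a relative of the subunit Ndufa12 and acts late in complex I assembly. Against the other 8 strains, Ndufaf2 was called higher in 3 strains and lower in 1. Its log2 signal was 6.42, 6.71 and 6.49 in 129S1/SvlmJ, 6.49, 6.41 and 6.56 in C57BL/6J, and 6.40, 6.49 and 6.56 in KK/HlJ. In DBA/2J it was 6.21, 6.04 and 5.92. The other 5 strains ran from 6.06 to 6.43 and so overlapped both sides. Differences from the other 8 strains were 0.30 in 129S1/SvlmJ (6.54 ± 0.15 against 6.25; SE 0.07, limma adjusted p = 0.00634) and -0.25 in DBA/2J (6.06 ± 0.14 against 6.31; SE 0.07, adjusted p = 0.0345). They were 0.23 in C57BL/6J (6.49 ± 0.08 against 6.25; adjusted p = 0.0375) and 0.23 in KK/HlJ (6.48 ± 0.08 against 6.25; adjusted p = 0.0436).

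Each of the Ndufaf2 strain calls was lost when some array was left out. The 129S1/SvlmJ call was lost without 129S1/SvlmJ replicate 2 (adjusted p = 0.142), the DBA/2J call without DBA/2J replicate 2 or 3 (up to 0.332), the C57BL/6J call without any 1 of its arrays (up to 0.187) and the KK/HlJ call in 18 of 27 omissions (up to 0.205). The F test of Ndufaf2 (adjusted p = 0.000637) held in all 27.

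Ndufb3, an accessory subunit of the membrane arm, read 6.31, 6.09 and 5.98 in MRL/MpJ, and the other 24 arrays ran from 6.11 to 6.86. It was 6.13 ± 0.17 in MRL/MpJ and 6.50 in the other 8, and it fell by 0.37 (SE 0.10, limma adjusted p = 0.0196; up to 0.166 without MRL/MpJ replicate 2 or 3). The groups overlapped at BALB/cJ replicate 1. Its F test call was lost in 17 of the 27 omissions, with adjusted p up to 0.128, and under array weights (0.0528) and the replicate block (0.0533). Without C3H/HeJ replicate 2, 4 more complex I members were lower in MRL/MpJ: the iron-sulphur core subunit Ndufs1 at -0.24 (limma adjusted p = 0.0124), Ndufa9 at -0.22 (0.00809), and the membrane arm subunits Ndufb6 at -0.24 (0.0142) and Ndufb5 at -0.18 (0.0277). In Ndufa9 the MRL/MpJ arrays read 8.76, 8.70 and 8.66, against 9.12, 9.01 and 9.22 in 129S1/SvlmJ and 9.22, 9.14 and 9.07 in C57BL/6J, where it was called higher without that array (0.24, adjusted p = 0.00517, and 0.27, adjusted p = 0.00224). DBA/2J replicate 2, at 8.69, lay among the MRL/MpJ arrays.

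Among complex I members that missed the threshold, the nearest by F test were the assembly factors Ndufaf5 (adjusted p = 0.0668), Ndufaf6 (0.0818) and Ndufaf4 (0.0907) and Ndufa11b (0.0811). Ndufa11b had strain means between 6.84 in C57BL/6J and 7.46 in KK/HlJ, and Ndufaf4 between 6.30 in C57BL/6J and 6.83 in C3H/HeJ. In these genes the arrays of neighbouring strains overlapped.

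In complex II, which oxidises succinate, the membrane anchor subunit Sdhd was low in 129S1/SvlmJ. It read 8.62, 8.59 and 8.63 there, below each of the other 24 arrays, which ran from 8.72 to 9.37. Sdhd was 8.61 ± 0.02 in 129S1/SvlmJ and 8.92 in the other 8, and it fell by 0.30 (SE 0.09, limma adjusted p = 0.024), a call that was lost without any 1 of the 129S1/SvlmJ arrays (up to 0.135). Sdhaf1, which helps insert iron-sulphur clusters into Sdhb, ran from 7.33 to 7.84 over the 27 arrays and was called by the F test but in no strain against the others. Its F test call was lost in 15 of the 27 omissions, with adjusted p up to 0.0724.

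Sdha read 9.97, 9.98 and 9.98 in C57BL/6J and 10.06, 9.99 and 9.91 in DBA/2J, and 9.65, 9.64 and 9.65 in BALB/cJ. C3H/HeJ read 9.60, 10.32 and 9.64, and with all arrays Sdha was not called in any strain. Without C3H/HeJ replicate 2 it was higher in C57BL/6J by 0.21 (limma adjusted p = 0.0168) and in DBA/2J by 0.22 (adjusted p = 0.0164). Sdhc, the other membrane anchor, was called higher in C3H/HeJ with all arrays (9.02 ± 0.33 against 8.74, a difference of 0.29, SE 0.08, adjusted p = 0.0378) and not without replicate 2 (0.10, adjusted p = 0.58). Its C3H/HeJ arrays read 8.85, 9.40 and 8.82, with replicate 2 alone above the other strains.

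In complex IV the F test called Cox7a2l and 3 forms restricted to a tissue or condition, Cox4i2, Cox6b2 and Ndufa4l2. Cox4i2, the lung and low-oxygen form of subunit IV, read 8.05, 8.29 and 8.35 in MRL/MpJ, 8.13, 8.25 and 8.20 in KK/HlJ and 8.09, 8.10 and 8.16 in BALB/cJ. It read 7.63, 7.64 and 7.91 in A/J and 7.94, 7.74 and 7.73 in 129S1/SvlmJ. The arrays of A/J and 129S1/SvlmJ did not reach those of MRL/MpJ, KK/HlJ or BALB/cJ. The other 4 strains lay between 7.71 and 8.08.

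Cox4i2 differed by F test (adjusted p = 0.000445) and in 4 strains against the other 8. It was higher by 0.27 in MRL/MpJ (8.23 ± 0.16 against 7.96; SE 0.07, limma adjusted p = 0.00955) and by 0.22 in KK/HlJ (8.19 ± 0.06 against 7.97; SE 0.07, adjusted p = 0.0352). It fell by 0.30 in A/J (7.73 ± 0.16 against 8.03; SE 0.07, adjusted p = 0.00576) and by 0.21 in 129S1/SvlmJ (7.80 ± 0.12 against 8.02; SE 0.07, adjusted p = 0.0418). Each strain call was lost when some array was left out: MRL/MpJ replicate 2 or 3 (up to 0.126), any KK/HlJ array (up to 0.205), A/J replicate 1 or 2 (up to 0.0987), and 10 different arrays for 129S1/SvlmJ (up to 0.26). The F test call held in all 27 omissions.

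Cox4i2 is a marker of pericytes and vascular smooth muscle in lung. The other 8 markers of those cells had summed log2 signals of 11.83 to 11.85 in MRL/MpJ, 11.42 to 11.82 in KK/HlJ, 11.60 to 11.71 in A/J and 11.70 to 11.79 in 129S1/SvlmJ, within 11.42 to 11.96 over all strains. Counted as higher and lower against the other 8 strains, these 8 gave 1 and 0 in MRL/MpJ, 1 and 1 in KK/HlJ, 3 and 0 in BALB/cJ, 0 and 2 in A/J and 0 and 2 in 129S1/SvlmJ. Their part in the Cox4i2 differences was not tested. The widely expressed Cox4i1 ran from 8.38 to 9.42, the top being C3H/HeJ replicate 2 and the highest of the rest 8.87, and it was not called by the F test.

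Cox6b2, known as the testis form of subunit VIb, read 6.45, 6.39 and 6.48 in KK/HlJ. It read 5.85, 5.91 and 5.87 in 129S1/SvlmJ and 5.88, 5.70 and 5.92 in BALB/cJ. The KK/HlJ arrays were the highest of the 27 and those of 129S1/SvlmJ and BALB/cJ the lowest, with the arrays of the other 6 strains between 5.92 and 6.39. Cox6b2 was higher by 0.33 in KK/HlJ (6.44 ± 0.05 against 6.11; SE 0.07, limma adjusted p = 0.00253). It fell by 0.31 in 129S1/SvlmJ (5.87 ± 0.03 against 6.18; SE 0.07, adjusted p = 0.00465) and by 0.35 in BALB/cJ (5.84 ± 0.12 against 6.19; SE 0.07, adjusted p = 0.00223). The calls in KK/HlJ and 129S1/SvlmJ held in every omission, and that in BALB/cJ was lost without its replicate 2 (adjusted p = 0.057). Its F test gave an adjusted p of 0.000151.

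Cox7a2l, the factor that joins complexes III and IV into supercomplexes, is known to occur in a shorter protein form in C57BL/6J and BALB/cJ. Its log2 signal was 8.56, 8.48 and 8.41 in BALB/cJ and 8.59, 8.35 and 8.52 in C57BL/6J. All 6 of these arrays lay above the other 21, which ran from 7.83 to 8.28. Cox7a2l was higher by 0.34 in BALB/cJ (8.48 ± 0.07 against 8.14; SE 0.07, limma adjusted p = 0.00649) and by 0.34 in C57BL/6J (8.49 ± 0.12 against 8.14; SE 0.07, adjusted p = 0.00378). Of the 14 pairs between these 2 strains and the other 7, 13 were called with no minimum difference. They differed by 0.33 to 0.49, with limma adjusted p of 0.00249 to 0.0361. Here too the split was placed at the widest gap between strain means, so the pair count is not independent support. The call was lost without BALB/cJ replicate 1 (0.0779) in BALB/cJ and without C57BL/6J replicate 1 (0.0658) in C57BL/6J.

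Ndufa4l2, the hypoxia-induced relative of the complex IV subunit Ndufa4, read 6.97, 7.07 and 7.23 in MRL/MpJ, against 7.08, 6.94 and 6.92 in BALB/cJ and 6.47 to 6.94 in the other 7 strains. It was 7.09 ± 0.13 in MRL/MpJ and 6.76 in the other 8, a difference of 0.33 (SE 0.07, limma adjusted p = 0.00386; 0.0726 without MRL/MpJ replicate 3). MRL/MpJ overlapped BALB/cJ alone. Ndufa4 itself ran from 10.43 to 11.11 over the 27 arrays and was not called. Cox7a2 read 7.38, 7.97 and 7.65 in MRL/MpJ, against 7.76 to 8.21 elsewhere. It fell by 0.28 (7.66 ± 0.29 against 7.95; SE 0.09, adjusted p = 0.0404), a call lost without any 1 of BALB/cJ replicate 3, DBA/2J replicates 1 and 3 and MRL/MpJ replicates 1 and 3 (up to 0.411).

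For the muscle forms the strain comparison turned on C3H/HeJ replicate 2. Cox7a1 was called higher in C3H/HeJ with all arrays (7.44 ± 1.42 against 6.48, a difference of 0.96, SE 0.29, limma adjusted p = 0.0449). Without that array the difference was 0.14 (adjusted p = 0.768). The call was lost in 19 of the 27 omissions, in the other 18 of them at adjusted p of up to 0.0568, and also under array weights (0.198) and under the trended and robust prior (0.0759). With C3H/HeJ replicate 2 left out, Cox7a1 was called higher in A/J by 0.60 (adjusted p = 0.00588), where its arrays read 7.44, 6.79 and 6.85, and it had been at 0.50 (adjusted p = 0.424) with all arrays. It read 6.27, 6.06 and 6.07 in C57BL/6J and 6.10, 6.26 and 6.15 in BALB/cJ, below every A/J array.

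Cox6a2, without that array, was called higher in MRL/MpJ by 0.22 (limma adjusted p = 0.036), at 7.76, 7.61 and 7.66, with A/J next at 7.68, 7.64 and 7.55. Cardiac markers also differed among strains. Their summed log2 signal over 12 genes was 12.69 to 12.96 in MRL/MpJ and 12.28 to 12.94 in A/J. It was 12.41 to 12.82 in C3H/HeJ, inside the range of A/J, and 12.28 to 12.61 in KK/HlJ. It was 11.54 to 11.94 in BALB/cJ, 11.93 to 12.17 in C57BL/6J and 11.92 to 12.21 in 129S1/SvlmJ. In DBA/2J it was 12.02 to 12.45 and in C57L/J 11.76 to 12.66, both reaching into the range of A/J. Of the 12, 10 were higher and 0 lower in MRL/MpJ, 6 higher and 1 lower in A/J, 4 higher and 0 lower in C3H/HeJ (1 and 0 without replicate 2), 1 higher and 0 lower in KK/HlJ, and 0 higher and 8 lower in BALB/cJ. Their part in the Cox6a2 and Cox7a1 values was not tested. Brown adipocyte markers other than Cox8b summed to 7.01 to 8.40 in A/J and 6.83 to 7.03 in MRL/MpJ.

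Cox8b was not called by the F test with or without C3H/HeJ replicate 2, its arrays in the other 8 strains running from 5.97 to 7.38. The testis forms Cox8c (4.73 to 5.58) and Cox7b2 (2.84 to 3.26) lay in or near the range of the Y-linked genes and were not called by the F test. The widely expressed Cox6b1 (8.52 to 9.54) and Cox7b (5.52 to 6.15) were not called either. Cox6a1 was the nearest to a call among these forms, with strain means of 9.18 in C57BL/6J to 9.49 in A/J and an F test adjusted p of 0.101.

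In complex V, Atp5mpl, a small subunit of the membrane part, had 2 low strains. Its log2 signal was 9.22, 9.20 and 9.27 in C57L/J and 9.23, 9.39 and 9.04 in DBA/2J, against 9.51 to 10.19 on the other 21 arrays. No array of the 2 strains reached the others. It fell by 0.44 in C57L/J (9.23 ± 0.03 against 9.67; SE 0.09, limma adjusted p = 0.00314) and by 0.45 in DBA/2J (9.22 ± 0.18 against 9.67; SE 0.09, adjusted p = 0.00346). The C57L/J call held in all omissions, and the DBA/2J call was lost without DBA/2J replicate 3 (0.0871). All 14 pairs between these 2 strains and the other 7 were called with no minimum difference. They differed by 0.40 to 0.59 in size, with limma adjusted p of 0.00307 to 0.0408. As for Ndufs5, the split followed the widest gap between strain means, so the pair count is not independent support. Atp5mpl was also higher in BALB/cJ, by 0.24 (limma adjusted p = 0.0473), without C3H/HeJ replicate 2.

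Atp5e, the epsilon subunit of the rotor stalk, read 7.21, 7.27 and 7.26 in 129S1/SvlmJ and 7.35, 7.22 and 7.24 in MRL/MpJ. It read 7.64, 7.53 and 7.83 in BALB/cJ, 7.77, 7.67 and 7.59 in C57BL/6J and 7.44, 8.36 and 7.70 in C3H/HeJ. The 2 low strains lay below every array of those 3 strains. The F test gave an adjusted p of 0.0281, which passed above the threshold without 129S1/SvlmJ replicate 1 or MRL/MpJ replicate 2 or 3 (up to 0.0544). Against the other 8 strains the gene was called only without C3H/HeJ replicate 2, at -0.27 in 129S1/SvlmJ (adjusted p = 0.0246) and -0.25 in MRL/MpJ (adjusted p = 0.037). Atp5d, the delta subunit of the same stalk, was then also lower in MRL/MpJ, at -0.17 (adjusted p = 0.0459). Atp5j2, the f subunit of the membrane part, was called higher in C3H/HeJ with all arrays (10.29 ± 0.23 against 10.03, a difference of 0.26, SE 0.07, adjusted p = 0.0302) and not without replicate 2 (0.13, adjusted p = 0.43). Its C3H/HeJ arrays read 10.11, 10.54 and 10.21.

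**Figure D4:**
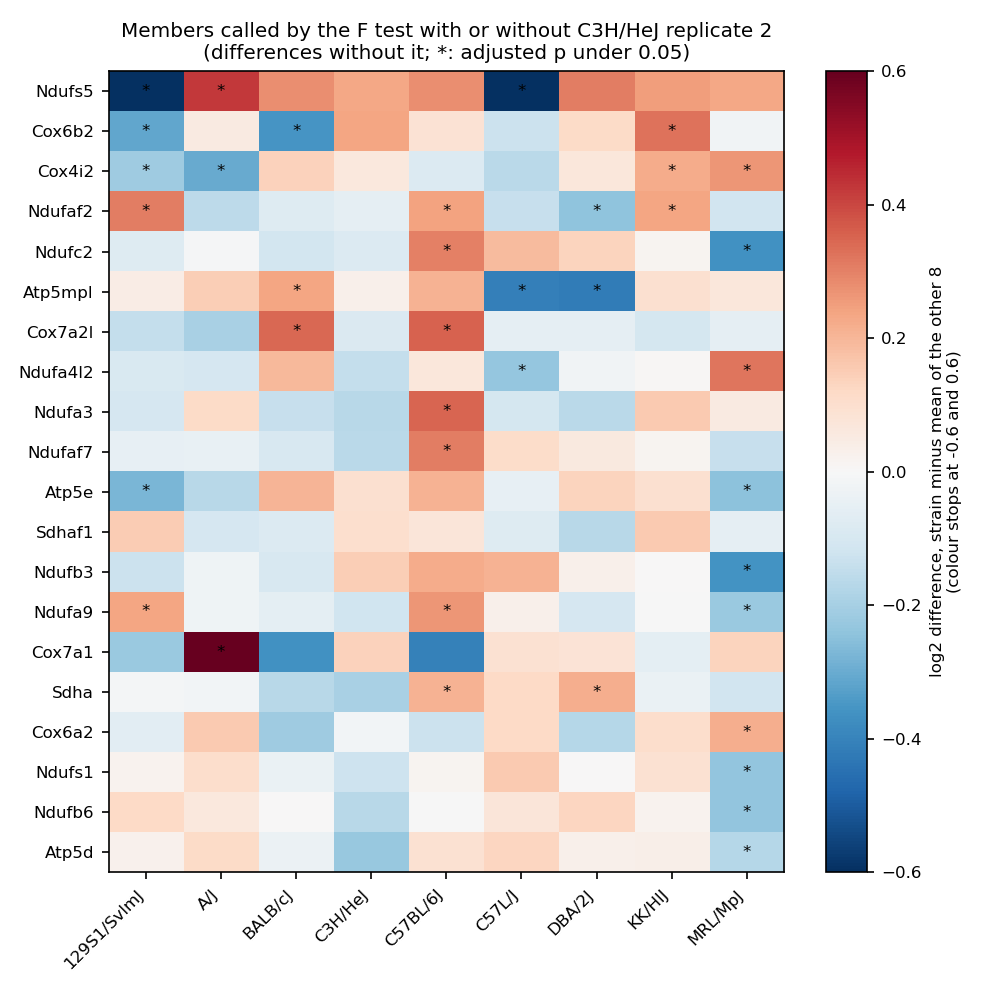
Rows are the 20 members called by the F test with all arrays or without C3H/HeJ replicate 2, columns are the 9 strains, and colour is the log2 difference between a strain and the mean of the other 8 without that array, stopped at 0.6 in size; stars mark an adjusted p under 0.05. Ndufs5 is darkest in 129S1/SvlmJ and C57L/J, and the column of MRL/MpJ holds the most stars.

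Counted by strain, C57BL/6J had 5 members higher, beside 4.06% of all named genes, and 0 lower, beside 4.11%. MRL/MpJ had 2 higher, beside 6.83%, and 3 lower, beside 5.61%. 129S1/SvlmJ had 1 higher, beside 3.54%, and 4 lower, beside 6.43%. KK/HlJ had 3 higher, beside 4.55%, and 0 lower, beside 2.83%. As shares of the 86 members these counts came to between 0 and 5.81%.

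In the remaining strains the counts were as small. C3H/HeJ had 3 higher, beside 4.18% of all named genes, and 0 lower, beside 3.08%. BALB/cJ had 1 higher, beside 2.48%, and 1 lower, beside 3.01%. C57L/J had 0 higher, beside 3.69%, and 2 lower, beside 2.94%, DBA/2J had 0 higher, beside 2.87%, and 2 lower, beside 1.94%, and A/J had 0 higher, beside 1.96%, and 1 lower, beside 3.75%. In all strains these shares were near or under the background.

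The strain counts were different without C3H/HeJ replicate 2. C3H/HeJ then had 0 higher, beside 2.06% of all named genes, and 0 lower, beside 1.52%. With C3H/HeJ replicate 1 or 3 left out in its place, 15 and 13 members were called there, beside 5.8% and 7.22% of all named genes. MRL/MpJ had 3 higher, beside 7.76%, and 9 lower (10.5% of the members), beside 5.95%. C57BL/6J had 7 higher, beside 4.21%, and 1 lower, Sdhc (-0.21, limma adjusted p = 0.0315), beside 4.38%. A/J had 2 higher, Cox7a1 and Ndufs5 (0.42, limma adjusted p = 0.0492), beside 2.27%, and 1 lower, beside 4.03%. 129S1/SvlmJ had 2 higher, beside 3.77%, and 5 lower, beside 6.91%, and BALB/cJ had 2 higher, beside 2.68%, and 1 lower, beside 3.18%. C57L/J had 1 higher, beside 4.12%, and 3 lower, beside 3.18%. The gene gained as higher there was Cox5a, a widely expressed complex IV subunit (0.25, adjusted p = 0.0198), and the one gained as lower was Ndufa4l2 (-0.23, adjusted p = 0.0421). DBA/2J had 1 higher, beside 2.93%, and 2 lower, beside 2.09%, and KK/HlJ had 3 higher, beside 4.82%, and 0 lower, beside 3.04%. Of the 28 strain calls made with all arrays, 6 held in every one of the 27 omissions.

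**Figure D5:**
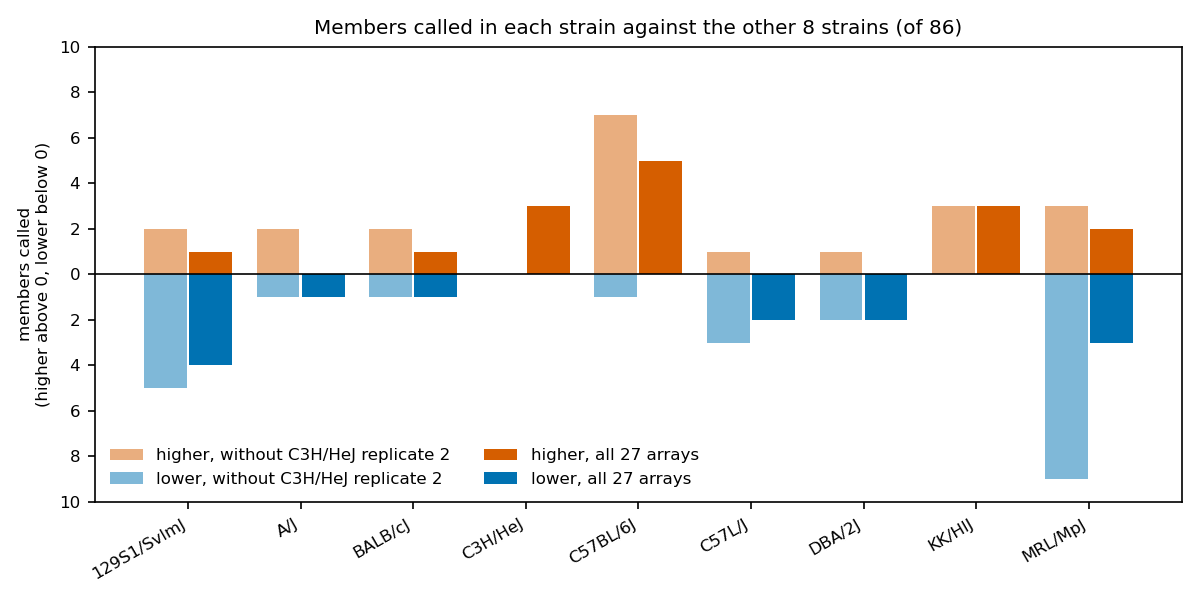
Bars give the number of the 86 members called higher (above 0) or lower (below 0) in each strain against the other 8, at an adjusted p under 0.05, without C3H/HeJ replicate 2 (light) and with all 27 arrays (dark). C3H/HeJ has 3 higher with all arrays and none without replicate 2, and MRL/MpJ has 9 lower without it, against 3 with it.

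The members' median difference from the other 8 strains lay between -0.06 in MRL/MpJ and 0.02 in A/J for 8 of the strains, and at 0.13 in C3H/HeJ. Over all named genes the medians were 0.04 in MRL/MpJ, -0.02 in A/J and 0.03 in C3H/HeJ. In C3H/HeJ 72 of 86 members were above 0 with all arrays, beside 59.3% of all named genes. Without replicate 2, 32 members were above 0 and their median was -0.04.

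Of the 36 strain pairs, 2 members were called in at least 1 pair at an adjusted p under 0.05 and a log2 difference of at least 1 (2.33%), beside 4.27% of all named genes. These were Ndufs5, in 12 pairs, and Cox7a1, in the pair of C3H/HeJ with C57BL/6J (1.30, adjusted p = 0.0324). Ndufs5 alone was called without C3H/HeJ replicate 2. With no minimum difference, 25 members were called in at least 1 pair (29.1%), beside 47.5% of all named genes, and 34 (39.5%) without that array, beside 48.3%. The pair of C57BL/6J with MRL/MpJ held the most, 9, beside 16.5% of all named genes, and that of C3H/HeJ with KK/HlJ held 0, beside 6.67%.

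The series also asks whether strains labelled increased and decreased for adenoma differ, which was tested over the 9 strain means. For severity, 0 of 86 members were called between the 7 increased and the 2 decreased strains, beside 0.00988% of all named genes. At an unadjusted p under 0.05 there were 3 (3.49%), beside 7.04%. For frequency, 3 increased against 6 decreased strains, 0 were called, beside 0%, and 1 (1.16%) at an unadjusted p under 0.05, beside 7.7%. Between the 3 strains increased in both and the 2 decreased in both, 0 were called, beside 0.00494%, and 3 at an unadjusted p under 0.05, beside 8.62%. The smallest adjusted p among the members was 0.679 for severity, 0.647 for frequency and 0.51 for both.

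Cox4i2 averaged 7.93 in the strains of increased severity (7.73 to 8.12) and 8.21 in those of decreased severity (8.19 to 8.23). The difference was -0.28 (SE 0.10, unadjusted p = 0.019, limma adjusted p = 0.679), and the strain means did not overlap. Atp5k, the e subunit of the membrane part of ATP synthase, averaged 7.97 (7.87 to 8.20) and 8.18 (8.15 to 8.21), a difference of -0.20 (SE 0.09, unadjusted p = 0.04, adjusted p = 0.696), and these ranges overlapped. Ndufb6 averaged 9.32 (9.25 to 9.37) and 9.16 (9.04 to 9.27), and these ranges overlapped as well. The difference was 0.16 (SE 0.07, limma unadjusted p = 0.042, adjusted p = 0.699). In C3H/HeJ, a strain of increased severity, Ndufb6 read 8.99, 9.88 and 9.22. Its mean there is raised by replicate 2, and the severity difference of Ndufb6 without that array is not given here.

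Atp5k was also the only member under 0.05 before adjustment for frequency. It averaged 7.89 (7.87 to 7.91) in the strains of increased frequency and 8.08 (7.94 to 8.21) in those of decreased frequency, a difference of -0.19 (SE 0.07, unadjusted p = 0.025, limma adjusted p = 0.647). Cox7b averaged 5.94 and 5.80 there, a difference of 0.14 (unadjusted p = 0.055). Cox7b is a widely expressed small subunit of complex IV. Between strains increased in both and those decreased in both, Atp5k averaged 7.89 and 8.18, a difference of -0.29 (SE 0.09, unadjusted p = 0.0087, adjusted p = 0.51). Cox7b averaged 5.94 and 5.73 (0.21, unadjusted p = 0.026, adjusted p = 0.543) and Cox4i2 7.90 and 8.21 (-0.31, unadjusted p = 0.029, adjusted p = 0.544). Without C3H/HeJ replicate 2, 0 members were called in each comparison, and the Atp5k difference was -0.25 for severity (unadjusted p = 0.00195, adjusted p = 0.456) and -0.14 for frequency (unadjusted p = 0.0809, adjusted p = 0.709). The 3 comparisons share strains, so their values are not independent of each other.

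The members' median difference between classes was 0.02 for severity, beside -0.03 over all named genes, -0.01 for frequency, beside -0.04, and 0.01 for both, beside -0.05. Of the 86 members, 48, 38 and 45 were above 0 in those comparisons, beside 39.3%, 34.2% and 35.5% of all named genes. Without C3H/HeJ replicate 2 the members' medians were -0.01 for severity, 0.02 for frequency and 0.01 for both. Members above 0 were then 38, 54 and 45 in that order. The sign of the median for severity and for frequency therefore depended on that array.

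Genes that assemble or surround the chain were counted from lists. The F test called 3 of 23 measured complex IV assembly and copper genes (2 without C3H/HeJ replicate 2), 2 of 8 other complex I assembly factors (1), 1 of 8 complex III and cytochrome c genes (2), 2 of 3 complex V assembly factors (2) and 3 of 6 supercomplex and hypoxia partners (4). It called 2 of 15 regulators of mitochondrial biogenesis (2), 1 of 14 tricarboxylic acid cycle genes (3) and 1 of 12 carriers and transhydrogenase genes (1). Set against 28.9% of all named genes, the lists of 8 or more genes lay below that share.

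Individual genes of these lists showed strain differences larger than most members. Chchd2, a mitochondrial protein that binds complex IV, read 6.98, 9.59 and 5.36 in MRL/MpJ, a mean of 7.31 ± 2.13, and it fell by 2.87 against the other 8 strains (SE 0.56, limma adjusted p = 0.0014). Its replicate 2 lay among the arrays of the other strains. Coa5, a complex IV assembly factor, read 7.88, 7.54 and 7.91 in DBA/2J, against 8.07 to 8.60 elsewhere. Nnt, the proton-driven transhydrogenase of which C57BL/6J carries a deletion, read 7.65, 7.80 and 7.53 in C57BL/6J, against 8.16 to 8.92 in the other strains. Higd2a, a supercomplex assembly factor, read 9.04, 9.23 and 9.11 in KK/HlJ, against 9.30 to 9.62 elsewhere. In Coa5, Nnt and Higd2a the low strain did not overlap any other.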

How the data were processed

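RNA of 27 right lungs was measured on Mouse Gene 1.0 ST arrays. Per the labels' protocols, TRIzol extraction was followed by RNeasy columns, a Bioanalyzer check and biotin labelling. The authors deposited log2 signal of 21225 probe sets per array; the affy package was used, per the submitters' processing notes, with no version. The normalization was not given in the sources used here. Values ran from 1.78 to 13.35 and array medians from 6.24 to 6.37, and they were used as deposited. A single symbol named 20239 probe sets, 1 per gene; 986 unnamed ones were left out. The design gives 3 females per strain, so replicates are separate mice, and their number limits the precision.

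With limma 3.58.1 in R 4.3.3, lmFit and eBayes were fitted to 1 mean per strain, for a moderated F test, each strain against the mean of the other 8, and the 36 pairs. Adenoma classes were compared over the 9 strain means, since mice of a strain share the label. P-values were adjusted by Benjamini-Hochberg over all 20239 genes, and a gene was called under 0.05, with pairs also needing a log2 difference of 1. Errors are SD over 3 mice or the fit's SE. On simulated data with 200 genes changed by 1, 94.5% were recovered by the F test, 99.5% in a strain against the rest, and 95%, 95% and 92.5% for severity, frequency and both. Smaller changes were not simulated, and the range of strain means stayed under 0.5 for 74 of the 86 members. The recovery therefore does not apply to differences of the size seen in most members.

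Named were the 20 members with the smallest F test p, up to 3 called per strain and direction, up to 3 per direction in each adenoma comparison, all paired complex IV forms, the 3 members furthest apart per direction on C3H/HeJ replicate 2, up to 4 genes per other list, and the highest and lowest member; calls gained without that array, and other calls, are named beside them. Members and lists were chosen with earlier results of these data known. Alternatives were quantile normalization, median centring, array weights, a trended and robust prior, dim probe sets left out, unnamed ones included, a block for the replicate number, other minimum differences, adjustment over all strain contrasts, the strain as a random block, arrays as independent, and leaving out each array or strain.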

Additional observations from a re-analysis of the deposited data

How the results depend on the processing

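The number of arrays, 3 a strain, limits the precision. The F test called 10 to 19 members when single arrays were left out. Counts against the other 8 strains then ran from 2 to 7 in 129S1/SvlmJ, 0 to 3 in A/J, 1 to 3 in BALB/cJ, 0 to 15 in C3H/HeJ, 2 to 8 in C57BL/6J, 2 to 4 in C57L/J, 0 to 3 in DBA/2J, 1 to 3 in KK/HlJ and 2 to 12 in MRL/MpJ, and in pairs from 1 to 3, while the adenoma counts stayed at 0. KK/HlJ had 1 call under quantile normalization, 1 under median centring and 1 under array weights. A/J had 2 under median centring and 3 under array weights. Array weights gave 0 in C3H/HeJ and 13 in C57BL/6J (9 higher and 4 lower), and median centring split the C3H/HeJ calls into 1 higher and 1 lower. The cause was not tested. The shares of all named genes called under these settings are not given beside the counts. The counts therefore describe the settings and are not results about the respiratory chain. A minimum log2 difference of 0.5 left 1 call each in 129S1/SvlmJ, C3H/HeJ and C57L/J and 0 in A/J, BALB/cJ, C57BL/6J, DBA/2J, KK/HlJ and MRL/MpJ. In pairs, 1 member was called with the intensity trend and robust prior, 10 at a minimum of 0.5 and 25 with none. Arrays taken as independent gave 1 call for severity and 1 for both, Cox4i2 in each case. The replicate block gave 11 by F test, 2 in pairs and 0 for adenoma class. In the strains it gave 4, 1, 2, 3, 5, 2, 2, 3 and 5, in alphabetical order from 129S1/SvlmJ to MRL/MpJ. The deviations of same-numbered arrays had a median correlation of -0.00 (-0.27 to 0.28 over 108 pairs, 24 above 0.1). These values showed no general pairing of the mice by number. Whether some same-numbered arrays share a batch was not tested. Of the 28 strain calls, 20 held under each of quantile normalization, median centring, dim probe sets left out, all probe sets, the trended prior, array weights, the replicate block and adjustment over all contrasts; none changed sign, and the minimum of 0.5 is not among these.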
